A study of Sus scrofa with 16 samples.

Results

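The miR-181 family of microRNAs is represented by 4 of the 1940 miRNAs in the count table of sow ovary, namely ssc-miR-181a, ssc-miR-181b, ssc-miR-181c and ssc-miR-181d-5p. The table lists 216 known and 1724 predicted miRNAs, and the 4 members were chosen by their names among the known ones. The family itself was chosen from its levels in the luteal and follicular phases in these same libraries, so differences between the phases are described below without a test, and the tests concern fecundity. All 4 members passed the filter on low counts, and none of them had counts identical to those of another entry in all libraries. Of the 1940 entries, 935 did, and those past the filter are counted separately in the shares below.

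Small RNA was sequenced from ovaries of 16 Canadian Large White sows, with 1 library per sow and n = 4 sows per group. LH and LL sows, of high and low fecundity, were sampled in the luteal phase on day 14 of the cycle, and FH and FL sows, of high and low fecundity, in the follicular phase on day 20, with day 1 as the first day of estrus. No sow received a treatment that the labels name, and each sow was sampled in one phase only, so that the phases were compared between different animals. By the study's records every LH sow was of higher parity than every LL sow, so parity and fecundity cannot be told apart in the luteal phase.

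A miRNA guides Argonaute proteins to messenger RNAs that pair with its seed, the short stretch near its 5′ end. The miR-181 members share a seed and differ by few bases elsewhere, so they can act on overlapping sets of targets. The family is best known for its abundance in developing T lymphocytes, where it tunes the response of the antigen receptor, and it is also found in endothelium, muscle and brain. In the ovary, the luteal phase is dominated by corpora lutea, the vascular, progesterone-secreting bodies left after ovulation, and the follicular phase by growing follicles with their granulosa and theca cells.

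The RefSeq annotation of the Sscrofa11.1 assembly holds 6 hairpin genes of the family in 3 pairs. MIR181A-1 and MIR181B-1 are neighbours within a long non-coding RNA gene close to PTPRC, the gene of the leukocyte surface phosphatase CD45. MIR181A-2 and MIR181B-2 lie within NR6A1, the gene of germ cell nuclear factor. MIR181C and MIR181D are neighbours, and the next annotated genes on the side of MIR181C are MIR23A, MIR27A and MIR24-1. The count table gives a single value each for miR-181a and miR-181b, so the hairpin pair that a read came from cannot be told apart for them. The rule that assigned a read to a member is not given in the sources used here, and reads of such similar sequences could be split between members.

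Levels are given as CPM, the counts of a miRNA relative to the size of its library, normalized by TMM, edgeR's trimmed-mean scaling of libraries. The order miR-181a, miR-181b, miR-181d-5p and miR-181c, from the highest to the lowest level, was found in 16 of 16 libraries. Among the 200 known miRNAs that passed the filter over all libraries, they ranked 36, 69, 91 and 117 by mean CPM. Raw counts ran from 356 for miR-181c in LL2 to 80256 for miR-181a in FH4, so no member was near the limit of detection. Ranges over sows did not overlap between neighbours in this order within any group, except for miR-181b and miR-181d-5p in FL.

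For each of the 4 members the group means of TMM-normalized CPM followed the order FL, FH, LH and LL from high to low. This order depended on the scaling of libraries. As a percentage of library counts, without TMM, the family averaged 0.452% in FL, 0.286% in LL, 0.255% in FH and 0.208% in LH. In CPM the gap between the phases was largest for miR-181c, whose mean was 3.92-fold higher in the follicular than in the luteal libraries. The corresponding fold was 1.99 for miR-181a, 1.80 for miR-181d-5p and 1.38 for miR-181b. Levels in bulk ovary do not separate fewer cells of a type from less of the miRNA per cell.

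miR-181a, the most abundant member, measured 1243, 2305, 956 and 1357 CPM in LH1 to LH4 and 1434, 981, 1516 and 1409 CPM in LL1 to LL4. In the follicular phase it measured 2258, 2491, 1632 and 2915 CPM in FH1 to FH4 and 2267, 4536, 3571 and 2633 CPM in FL1 to FL4. The highest luteal sow, LH2, stood above FH1, FH3 and FL1, whereas every LL sow was below every FL sow. The group mean was 1465 ± 585 CPM for LH and 1335 ± 240 CPM for LL, against 2324 ± 535 CPM for FH and 3252 ± 1017 CPM for FL (SD, n = 4).

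miR-181b is made from hairpins next to those of miR-181a and had the smallest fold between the phases. It measured 446, 755, 327 and 388 CPM in LH1 to LH4 and 476, 362, 481 and 428 CPM in LL1 to LL4. In the follicular phase it measured 520, 567, 430.0 and 668 CPM in FH1 to FH4 and 568, 990, 690 and 607 CPM in FL1 to FL4. LH2 was again the highest luteal sow, above every follicular sow but FL2. Group means were 479 ± 190, 437 ± 55.2, 546 ± 99.1 and 714 ± 191 CPM in LH, LL, FH and FL (SD, n = 4).

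miR-181c, the least abundant member, measured 22.5, 63.6, 34.5 and 62.9 CPM in LH and 25.1, 18.4, 29.9 and 29.9 CPM in LL. In FH it measured 87.7, 139, 84.2 and 168 CPM, and in FL 94.5, 227, 174 and 149 CPM. All 8 luteal sows lay below all 8 follicular sows, with a highest luteal value of 63.6 CPM and a lowest follicular value of 84.2 CPM. The other 3 members overlapped between the phases. Of the 445 miRNAs tested over 16 libraries, 6 (1.35%) were lower in every luteal than in every follicular library and 2 (0.449%) were higher. Since the phases served to choose the family, nothing is read from this share. Group means of miR-181c were 45.9 ± 20.7, 25.8 ± 5.47, 120 ± 40.7 and 161 ± 55.1 CPM in LH, LL, FH and FL (SD, n = 4).

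miR-181d-5p, whose hairpin is next to that of miR-181c, measured 168, 312, 191 and 256 CPM in LH and 176, 133, 187 and 153 CPM in LL. It measured 235, 301, 223 and 338 CPM in FH and 301, 520, 320.3 and 599 CPM in FL. LH2 and LH4 lay within the range of the FH sows, and FL2 and FL4 stood apart at the top. Group means were 232 ± 65.2, 162 ± 24.0, 274 ± 54.6 and 435 ± 147 CPM in LH, LL, FH and FL (SD, n = 4).

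**Figure D1:**
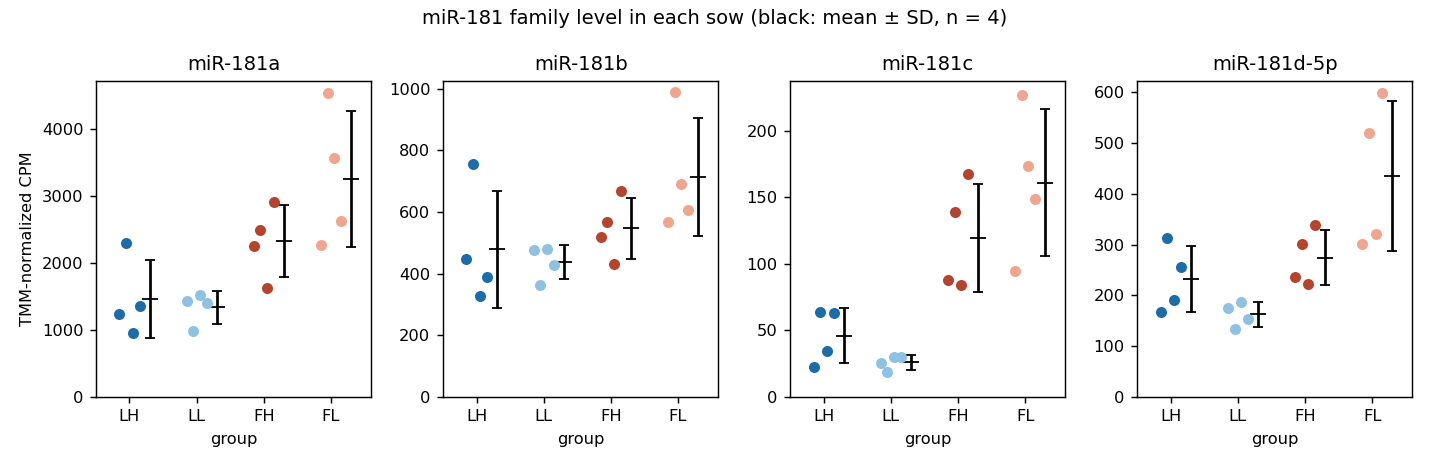
TMM-normalized CPM of the 4 miR-181 members in each sow (points), by group, with the mean ± SD of 4 sows in black; each panel has its own linear axis from 0. For miR-181c the highest luteal sow is at 63.6 CPM and the lowest follicular sow at 84.2 CPM, whereas the phases overlap for the other members.

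In the model of all 16 libraries the luteal minus follicular log2 difference was -0.98 for miR-181a (SE 0.23), -0.45 for miR-181b (SE 0.21), -2.01 for miR-181c (SE 0.34) and -0.83 for miR-181d-5p (SE 0.26). The median log2 difference was 0.17 over all 445 miRNAs and -0.02 over the 200 known ones, whose quartiles were -0.76 and 0.73. Thus miR-181a, miR-181c and miR-181d-5p lay below the lower quartile of the known miRNAs and miR-181b within the quartiles. All 4 differences stayed negative under each scaling tried. Without TMM the difference of miR-181b was -0.034 (SE 0.25) and that of miR-181a -0.56 (SE 0.25), and the median of all miRNAs moved up by 0.38.

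The phases were also compared within each fecundity group. Among sows of low fecundity the log2 difference of LL minus FL was -1.15 for miR-181a (SE 0.29), -0.59 for miR-181b (SE 0.27), -2.50 for miR-181c (SE 0.37) and -1.28 for miR-181d-5p (SE 0.31). In TMM-normalized CPM every LL sow was below every FL sow for all 4 members, and for 52 of the 445 miRNAs (11.7%). This separation depended on the scaling. Without TMM the family as a whole took 0.367% of the counts in LL1 and 0.239% in FL1. Among sows of high fecundity, LH minus FH was -0.62 for miR-181a (SE 0.29), -0.15 for miR-181b (SE 0.30), -1.35 for miR-181c (SE 0.41) and -0.21 for miR-181d-5p (SE 0.27). Of the members only miR-181c was lower in every LH than in every FH sow, which 21 of the 445 miRNAs (4.72%) were. As above, nothing is read from these shares of the 445 miRNAs, since the phases served to choose the family. The differences of miR-181b and miR-181d-5p in sows of high fecundity were smaller than their standard errors. As folds of the mean CPM, FL over LL was 2.44, 1.63, 6.24 and 2.68 for miR-181a, miR-181b, miR-181c and miR-181d-5p, and FH over LH was 1.59, 1.14, 2.61 and 1.18.

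The interaction of fecundity and phase asks whether the difference between low and high fecundity differed between the phases. The log2 interaction, (LL minus LH) minus (FL minus FH), was negative for each member. It was -1.18 for miR-181d-5p (SE 0.42, unadjusted P = 0.0131, adjusted p = 0.193 by edgeR) and -1.26 for miR-181c (SE 0.57, unadjusted P = 0.0457, adjusted p = 0.338 by edgeR). For miR-181a it was -0.62 (SE 0.43, adjusted p = 0.552 by edgeR) and for miR-181b -0.52 (SE 0.40, adjusted p = 0.640 by edgeR). None of the 445 miRNAs (0%) passed an adjusted p of 0.05 in edgeR, and 63 (14.2%) had an unadjusted P under 0.05, among them 2 of the 4 members. By DESeq2, 58 miRNAs passed the adjusted threshold, among them miR-181d-5p (log2 interaction -1.09, adjusted p = 0.0395) and not miR-181c (adjusted p = 0.164). Without LH4, FL2 and FL4, the 3 libraries that stood apart in miR-34c (described further on), the interaction of miR-181d-5p was -0.65 (SE 0.47) and that of miR-181c -0.76 (SE 0.69), and no member had an unadjusted P under 0.05 in edgeR. The interaction is therefore not called for any member.

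**Figure D2:**
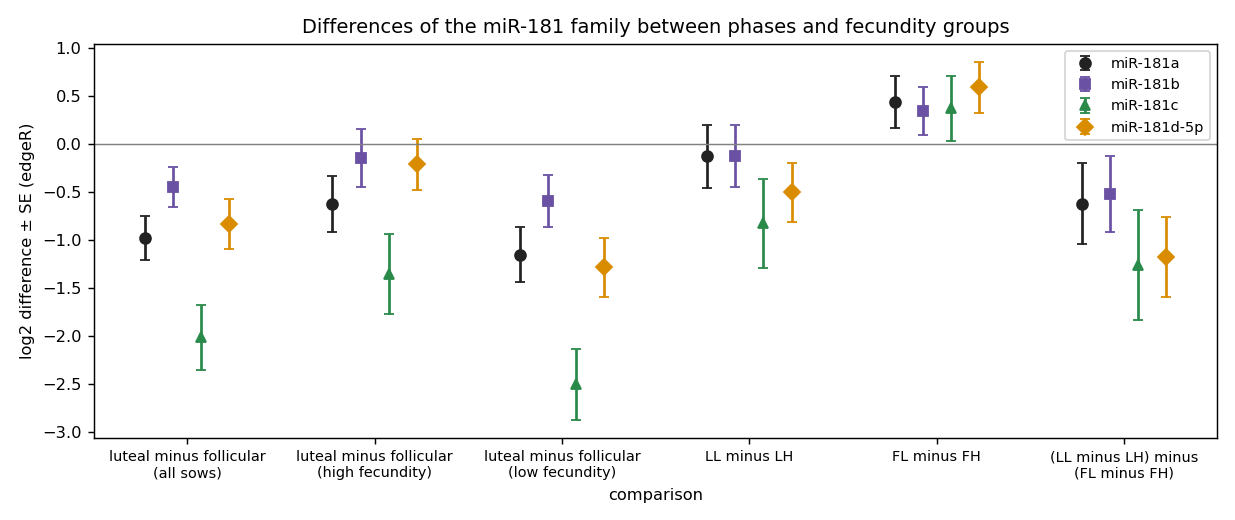
Log2 differences ± SE of the 4 members from edgeR, for the luteal minus the follicular phase in all sows, in sows of high and in sows of low fecundity, for low minus high fecundity in each phase, and for the interaction. miR-181c is lowest in all 3 comparisons of the phases, at -2.01 in all sows, and the signs of the fecundity differences are negative in the luteal and positive in the follicular phase.

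In LH vs. LL, no member was called differentially expressed, which with n = 4 sows per group does not show that levels were equal. The log2 fold change of low over high fecundity was -0.83 for miR-181c (SE 0.46, adjusted p = 0.405 by edgeR) and -0.50 for miR-181d-5p (SE 0.31, adjusted p = 0.439 by edgeR). For miR-181a it was -0.13 (SE 0.33, adjusted p = 0.863 by edgeR) and for miR-181b -0.12 (SE 0.32, adjusted p = 0.864 by edgeR). The study called a miRNA when its unadjusted P was under 0.05 and its fold change at least 1 on the log2 scale in either direction, and 47 of the 362 miRNAs tested (13.0%) passed this threshold, but none of the 4 members. By adjusted p, 3 miRNAs (0.829%) passed and again no member, and 0 miRNAs passed when entries with identical counts were collapsed. The groups did not overlap for 57 of the 362 miRNAs (15.7%), and overlapped for all 4 members. Only the signs of miR-181c stayed the same in every setting. Those of miR-181a and miR-181b turned without LH2, to 0.16 for both, and those of miR-181a, miR-181b and miR-181d-5p turned when libraries were scaled by their size alone, to 0.50, 0.51 and 0.14. Without LH1, miR-181c passed the study's threshold (log2 fold change -1.05, adjusted p = 0.180 by edgeR).

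In FH vs. FL, the members were likewise not called, and all 4 had higher means in FL. The log2 fold change of low over high fecundity was 0.59 for miR-181d-5p (SE 0.26, unadjusted P = 0.0557, adjusted p = 0.650 by edgeR). The values were 0.44 for miR-181a (SE 0.27, adjusted p = 0.704 by edgeR), 0.35 for miR-181b (SE 0.25, adjusted p = 0.704 by edgeR) and 0.37 for miR-181c (SE 0.34, adjusted p = 0.797 by edgeR). In the edgeR fit, 19 of the 307 miRNAs tested (6.19%) passed the study's threshold and 2 (0.651%) the adjusted one, with no member among them. FH and FL did not overlap for 8 of the 307 miRNAs (2.61%), whereas they overlapped for all 4 members. Without FL2 and FL4, which held the highest levels of miR-181d-5p, its log2 fold change was 0.23 (SE 0.24).

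The ratio of members within a library does not depend on the scaling of libraries. The family as a whole took 0.128% to 0.715% of the counts of a library, and miR-181a was 65.6 ± 1.57% of the family reads for LH and 67.9 ± 1.73% for LL, against 71.0 ± 1.62% for FH and 70.9 ± 3.83% for FL (SD, n = 4). miR-181b made up 21.5 ± 2.04%, 22.4 ± 1.33%, 16.9 ± 0.886% and 15.8 ± 1.31% in LH, LL, FH and FL. Its share was 18.8% to 24.2% in the luteal and 14.5% to 18.1% in the follicular libraries, which did not overlap. The share of miR-181c was 2.095 ± 0.778%, 1.31 ± 0.132%, 3.61 ± 0.574% and 3.49 ± 0.377%, and here LH4 lay above FH1 and FL1. For miR-181d-5p the shares were 10.8 ± 2.04%, 8.32 ± 0.564%, 8.47 ± 0.757% and 9.84 ± 3.61%, with no order by phase. As phase is what the family was chosen by, these shares are a description as well.

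Members made from neighbouring hairpins did not keep a constant ratio. The ratio of miR-181b to miR-181a was 0.286 to 0.369 in the luteal and 0.193 to 0.263 in the follicular libraries, with no overlap. Reads of both hairpin pairs may enter miR-181a and miR-181b, so this is not the ratio of a single pair. As phase served to choose the family, the ratios here are a description, and ratios of other miRNAs were not examined. For miR-181c over miR-181d-5p the ratio was 0.134 to 0.246 in the luteal and 0.249 to 0.543 in the follicular libraries, and LH4 and FL4 nearly met. The ratio of miR-181c to miR-181a was 0.0175 to 0.0212 in the 4 LL sows, 0.0181 to 0.0464 in LH and 0.0389 to 0.0576 in the follicular sows, where LH4 reached into the follicular range.

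**Figure D3:**
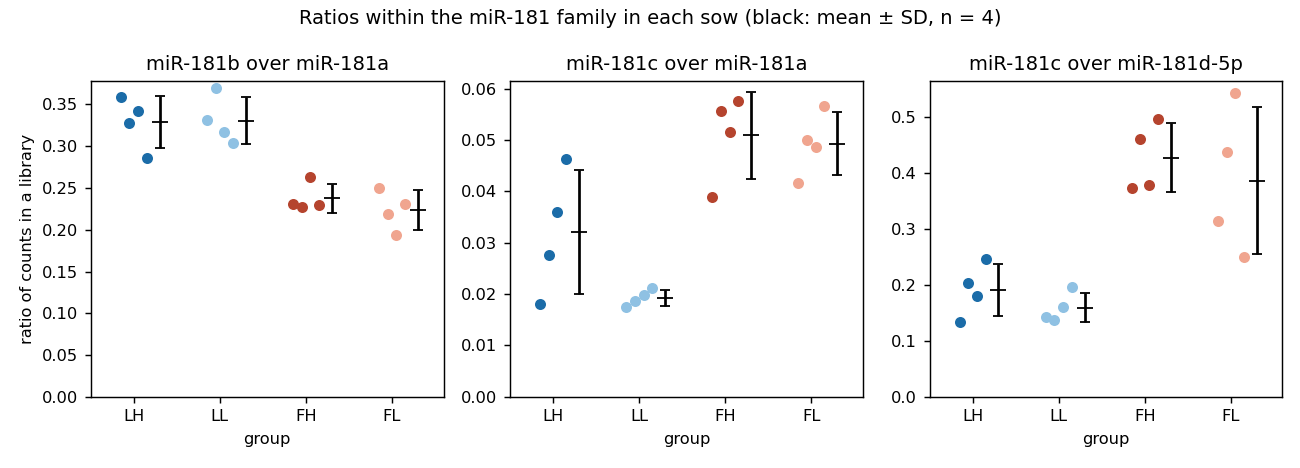
Ratios of counts between members within each library (points), by group, with the mean ± SD of 4 sows in black, on linear axes from 0. miR-181b over miR-181a is 0.286 or more in every luteal and 0.263 or less in every follicular library, and miR-181c over miR-181d-5p nearly meets between LH4 at 0.246 and FL4 at 0.249.

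Over the 16 libraries the levels of the members followed each other. Pearson's r of log2(CPM + 1) was 0.940 between miR-181a and miR-181b, and 0.954 after the group means were taken out. Between miR-181c and miR-181d-5p it was 0.892, and 0.772 without the group means. Pairs from different hairpin clusters gave 0.751 to 0.907, and 0.613 to 0.784 without the group means. These values are descriptive, since all levels come from the same libraries and share their scaling.

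**Figure D4:**
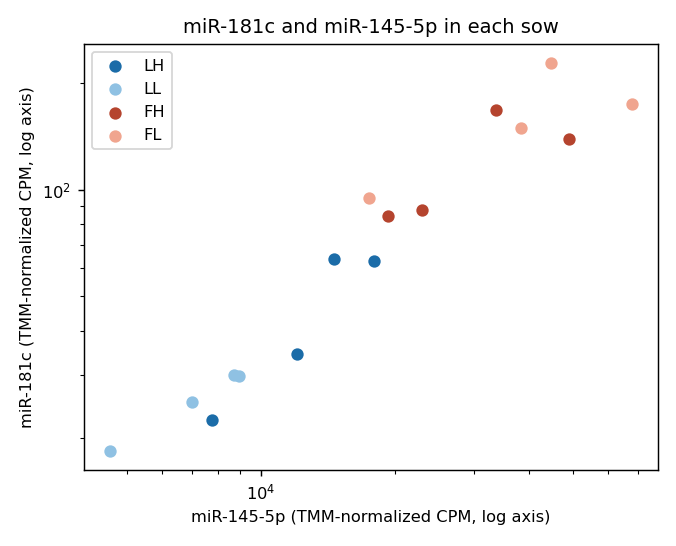
miR-181c against miR-145-5p in each of the 16 sows, both in TMM-normalized CPM on log axes, coloured by group. The levels follow each other over all sows (r = 0.963) and within each phase.

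The known miRNAs most like each member were found by the same measure among 196 others, and r after the group means were taken out is given second in each parenthesis. For miR-181c this was miR-145-5p, a smooth muscle miRNA (r = 0.963 and 0.834), followed by miR-29b (r = 0.922 and 0.586), which is known to target collagen messages, and let-7c (r = 0.920 and 0.685). Within the 8 luteal libraries r with miR-145-5p was 0.947 and within the 8 follicular ones 0.823. Most like miR-181a were miR-193a-5p (r = 0.946 and 0.904), miR-186 (r = 0.876 and 0.695) and miR-320 (r = 0.875 and 0.746). For miR-181b the closest were miR-193a-5p (r = 0.893 and 0.823), miR-149 (r = 0.874 and 0.841) and miR-320 (r = 0.813 and 0.669). miR-320 (r = 0.911 and 0.745), miR-145-5p (r = 0.833 and 0.526) and let-7c (r = 0.826 and 0.436) were closest to miR-181d-5p. The first r includes the difference between the phases, by which the family was chosen.

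Among the miRNAs of the neighbouring cluster, miR-23a, like miR-181c, was lower in every luteal than in every follicular library, by a log2 difference of -0.99 (SE 0.19). Its means were 872, 739, 1650 and 1539 CPM in LH, LL, FH and FL. The other miRNAs of that cluster overlapped between the phases. The luteal minus follicular log2 difference was -0.32 for miR-27a (SE 0.29) and -0.31 for miR-24-1-5p (SE 0.23), whose counts nearly equal those of miR-24-2-5p from another locus. miR-23b, the close relative of miR-23a from another locus, had a log2 difference of -0.11 (SE 0.17).

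Marker miRNAs of the ovary and of other cell types were read beside these levels, and their part in the differences of the family was not tested. miR-202-5p, a miRNA of the gonads, had 1141 to 74522 counts in every library. Over the 445 miRNAs, 29 (6.52%) were lower and 38 (8.54%) higher in the luteal phase by adjusted p. Both smooth muscle markers were lower in the luteal phase, miR-143-3p by a log2 difference of -1.12 and miR-145-5p by -1.89 (adjusted p = 0.00389 for each by edgeR). Summed, they ranged over 111488 to 212844 CPM for LH and 71951 to 91143 CPM for LL, against 232331 to 444650 CPM for FH and 170439 to 310982 CPM for FL. So this sum, most of which is miR-143-3p, put each LL sow below all sows of the other groups and each luteal sow below all FH sows, whereas miR-145-5p alone overlapped between LL and LH.

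Of the 5 markers of leukocytes, the cells the family is best known in, none passed the adjusted threshold between the phases. The sum of these markers ranged over 1100 to 2053 CPM for LH and 1614 to 2479 CPM for LL. It was 1960 to 2265 CPM for FH and 1723 to 3363 CPM for FL. One of the markers, miR-142-5p, was at 0 in all 4 LH libraries, in 1 LL library and in 1 FL library. It reached 9079 counts elsewhere, and its log2 difference between the phases had an SE of 4.07. The sums include these zeros, whose cause was not tested. Of 3 endothelial markers, miR-221-3p and miR-222 were higher in the luteal phase. Of the 6 steroidogenic markers, miR-202-5p was higher and miR-378 lower. Striated muscle markers gave 1 higher (miR-499-5p) and 2 lower (miR-133a-5p and miR-133b) of 5 tested. For erythrocytes, liver and neural tissue 0 of the 2, 1 and 3 markers tested were called.

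Among 5 epithelial markers, miR-182 and miR-183 were higher and miR-205 lower in the luteal phase, and miR-34c set 3 libraries apart. It measured 7335 to 21379 CPM in LH4, FL2 and FL4 and 18.3 to 196 CPM in the other 13. The same 3 libraries hold high levels of some members, FL2 of miR-181a, miR-181b and miR-181c, FL4 of miR-181d-5p, and LH4 of miR-181c, second among the luteal sows to LH2. Without them the mean of the follicular over that of the luteal libraries was 1.79-fold for miR-181a, 1.23-fold for miR-181b, 3.89-fold for miR-181c and 1.52-fold for miR-181d-5p.

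Library totals ran from 8998496 to 37194836 counts. The TMM factor was 0.851 to 1.07 for LH and 1.19 to 1.74 for LL, which did not overlap, and 0.670 to 0.942 for FH and 0.741 to 1.23 for FL. PCR was done without molecular identifiers, so read counts are not counts of separate molecules.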

How the data were processed

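Small RNA libraries of 16 sow ovaries were analysed. The authors trimmed reads with Trimmomatic, mapped them to Sscrofa10.2 with Bowtie 2 (version 2.1.0 in the submitters' processing notes), predicted further miRNAs with miRDeep and deposited raw counts per miRNA and library, without normalization. The assignment of reads to near-identical miRNAs is not given in the sources used here.

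Members were taken by name. Members and lists were chosen with earlier results of these data known. Counts were tested in R 4.3.3 with edgeR 4.0.16 (TMM, quasi-likelihood test, filterByExpr with 10 counts as minimum and 15 as minimum total). Each fecundity comparison was fitted on its own 8 libraries, the interaction and the phases on all 16. P-values were adjusted by Benjamini-Hochberg over all miRNAs tested. The tests were checked on simulated counts.

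Alternatives were DESeq2 1.42.0, no filter, a filter of 10 counts in 4 libraries, library size only, TMM on known miRNAs, a replicate block, the clean read share or parity as a covariate, all 16 libraries in a single fit, sows of high or low fecundity alone and leaving out each sow. Collapsing entries with identical counts and leaving out the 3 libraries with more than 1000 CPM of miR-34c (of the library total, without TMM) were chosen after seeing the data.

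Beside the members, the text names the 3 known miRNAs most correlated with each over log2(CPM + 1), and markers of fixed lists. The neighbours of the hairpins and miR-23b were named in addition. Mature sequences, and predicted miRNAs with the seed of the family, were not analysed here. Hairpin neighbours are from RefSeq, Sscrofa11.1, and no coordinates are given since the builds differ.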

Additional observations from a re-analysis of the deposited data

Results flagged for a closer look

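The share of miR-181c in the family reads was 2.93% in FL1, apart from the other 3 FL sows. Its gap to the nearest of them was 0.856 of the range of the group, above Dixon's critical value at 95% for 4 samples. Of the 36 groups of 4 values examined this was the only one past that value, and chance gives about 1 in 20.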

How the results depend on the processing

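In LH vs. LL the log2 fold changes of miR-181a, miR-181b and miR-181d-5p changed sign with library size only (0.50, 0.51 and 0.14). There the median of all miRNAs moved up by 0.60. Those of miR-181a and miR-181b also changed sign with parity as a covariate, to 0.31 (SE 0.82) and 0.63 (SE 0.76). Both did so without LH2 (0.16 each), so their ranges with a sow left out were -0.32 to 0.16 and -0.30 to 0.16. The cause was not tested. In FH vs. FL with parity as a covariate, miR-181a was at 0.29 (SE 0.42) and miR-181b at 0.29 (SE 0.39). In the same fit miR-181c was at 0.29 (SE 0.54) and miR-181d-5p at 0.59 (SE 0.42). The number of members past the study's threshold was 0 to 1 with a sow left out in LH vs. LL (1, miR-181c, without LH1), and 1 (miR-181d-5p, log2 fold change 1.07) with library size only in FH vs. FL. For the interaction, 1 member passed by adjusted p with DESeq2. In edgeR 2 members had an unadjusted P under 0.05, and 0 did with library size only, without a filter or without the 3 libraries of high miR-34c, 1 with TMM on known miRNAs, and 1 to 2 with a sow left out. The log2 difference between the phases moved for all 4 members with library size only and in sows of high fecundity. With library size only it was -0.56, -0.034, -1.61 and -0.45 for miR-181a, miR-181b, miR-181c and miR-181d-5p. In sows of high fecundity it was -0.62, -0.15, -1.35 and -0.21 in the same order. In sows of low fecundity it moved most for miR-181c (-2.50) and miR-181d-5p (-1.28). With a sow left out it stayed between -1.14 and -0.86 for miR-181a, -0.61 and -0.35 for miR-181b, -2.15 and -1.87 for miR-181c and -0.95 and -0.71 for miR-181d-5p.

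Same-numbered sows did not deviate together (r from -0.34 to 0.27 over the pairs), and 5 of 16 libraries correlated best with their own number, so the numbers do not pair the sows. With a replicate block, 1 member (miR-181d-5p, -1.08) had an unadjusted P under 0.05 for the interaction, and no member was called by adjusted p.

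Over all miRNAs, 3 were called by adjusted p in LH vs. LL, 28 with DESeq2 and 0 to 8 with a sow left out. With entries of identical counts collapsed, 0 were called there. In FH vs. FL 2 were called, 11 with DESeq2, 0 to 1 with a sow left out and 2 with identical entries collapsed. By the study's threshold in edgeR, 47 and 19 were called, and 158 and 93 without a filter. When the clean read share was a covariate, 14 and 6 were called. The interaction gave 0 by adjusted p, 58 with DESeq2, 24 without a filter and 0 to 6 with a sow left out.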
